A study of Homo sapiens with 36 samples.

Results

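The sites described here are adenosines that the study listed as methylated and placed in 3'UTRs. Their 5-base sequence, with the adenosine in the middle, does not match DRACH (D is A, G or T, R is A or G, and H is A, C or T). They were taken from the authors' region label and motif in each of the 3 site tables, with no measured value used. They number 4087 of the 13538 3'UTR sites in HEK293T (30.2%), 3272 of 5056 in BE(2)-C without ATRA (64.7%) and 3518 of 5338 in BE(2)-C with ATRA (65.9%). That is 10877 of 100897 listed sites over all 3 tables, and 9193 distinct positions, called the members below. The libraries came from m6ACE, which crosslinks an antibody to N6-methylated adenosine and trims the RNA with exonuclease to find the modified base. Cells carried siRNA against PCIF1 (siPcif1) or a scrambled siRNA (siScram), for 24 hours per the labels' treatment text. The contexts were HEK293T, a human embryonic kidney line, and BE(2)-C, a human neuroblastoma line, without ATRA and with 10 uM ATRA (all-trans retinoic acid, which differentiates such cells) for 4 days. Each context had 3 m6ACE and 3 input libraries per siRNA, 36 samples in 12 groups, and levels are given for the 18 m6ACE libraries.

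Most m6A in mRNA is written co-transcriptionally by the METTL3 and METTL14 complex in the DRACH context, and it is dense in 3'UTRs near stop codons. A second enzyme, METTL16, methylates a small set of structured targets, of which hairpins in the 3'UTR of MAT2A mRNA are the best known. PCIF1 writes m6Am on the adenosine next to the cap, which lies at the other end of the transcript from the sites described here.

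The unit is the authors' relative methylation level (RML), a ratio for each m6ACE library, and levels are never set against each other between tables because no scale common to the tables is stated. In bulk libraries a lower level in every cell and a mark in fewer cells cannot be told apart. Nothing in the labels states that replicates were grown as separate cultures, so every p-value below reflects spread among these libraries, and that spread may be technical. The limma fit described below pools this spread over sites. In BE(2)-C without ATRA the pooling was almost complete, so a limma p-value there says little about the spread at its own site. One treatment text, written for BE(2)-C, stands for all samples, the labels call HEK293T neuroblastoma, and the table for the cells without ATRA is named for DMSO. The knockdown itself cannot be checked from RML. Of 14 adrenergic neuroblastoma genes such as HAND2 and DBH, 13 had a listed site of any kind in BE(2)-C without ATRA, 12 in BE(2)-C with ATRA and 5 in HEK293T. Depth per site is unknown. In HEK293T between 76.6% and 80.8% of the members had, within a library, the same RML to 6 decimals as another member. That share was 50.1% to 57.9% in BE(2)-C without ATRA and 39.5% to 58.6% with ATRA. With ATRA, siPcif1 replicate 3 and siScram replicate 1 resembled each other more over the members (r = 0.871 on the log2 scale) than any 2 libraries of 1 group did (at most 0.840), as a description across 3518 sites.

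The following sites are shown because a 25-base window around them could be read from RefSeq promoter sequences (GRCh38.p14), where a gene start lies close to a listed 3'UTR. The 5 bases in capitals are the deposited motif, and the third of them is the adenosine listed as methylated.
UQCC3, chr11:62672262-62672286, plus strand: acgtttccccCAAACcctggactga
UQCC3, chr11:62672283-62672307, plus strand: ctgactgcttTAAGGtccgcaaggc
KCNT1, chr9:135792197-135792221, plus strand: gggtcctcagGAAGGacgtggagga
KCNT1, chr9:135792200-135792224, plus strand: tcctcaggaaGGACGtggaggagcg
NFYA, chr6:41097851-41097875, plus strand: ctgactaactGAATGgacgctttgt
C11orf80, chr11:66843436-66843460, plus strand: gcgccgcgggTCAGGgcgcaatggc
The first UQCC3 adenosine, listed in BE(2)-C with ATRA, lies 8 nt 5' of a listed DRACH site, whose GGACT is in the same window. Both KCNT1 adenosines were listed as separate sites, and the second carries GGACG, which misses DRACH at the last base only. The C11orf80 adenosine, labelled 3'UTR of C11orf80, lies 7 nt into the annotated start of RCE1, a CAAX protease gene on the same strand. The coordinates are the authors' hg38 positions, and the middle adenosine fell on the deposited position in every window that could be compared.

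RML at the 3'UTR sites outside DRACH was lower than at 3'UTR DRACH sites in all 18 libraries. The median of a site's mean RML over 6 libraries was 1.41 for the members and 2.18 for the 3'UTR DRACH sites in HEK293T. It was 2.20 against 2.77 in BE(2)-C without ATRA and 3.20 against 4.20 with ATRA. In log2 units the members' median lay below that of 3'UTR DRACH sites by a similar amount under both siRNAs. The difference was -0.53 ± 0.07 in siPcif1 and -0.52 ± 0.07 in siScram HEK293T libraries (SD, n = 3 each). In BE(2)-C without ATRA it was -0.30 ± 0.02 in siPcif1 and -0.27 ± 0.03 in siScram libraries, and with ATRA -0.30 ± 0.13 in siPcif1 and -0.37 ± 0.24 in siScram libraries. The siRNA groups differed in this measure by no more than about 1 SD of the siScram libraries. The members also lay below 5'UTR sites outside DRACH in all 18 libraries, and in none of the 18 did they lie below coding sites outside DRACH. Many members still had high RML: 27.1% of members in HEK293T, 49.0% in BE(2)-C without ATRA and 46.2% with ATRA had a mean RML at or above the median of their whole table, against 46.9%, 62.9% and 64.5% of 3'UTR DRACH sites. By the authors' deposited p-values at 0.05, 53.8% of members in HEK293T, 35.5% in BE(2)-C without ATRA and 38.9% with ATRA were called in both siRNA groups, against 67.0%, 43.0% and 44.5% of 3'UTR DRACH sites. In siPcif1 cells alone 15.4% of members were called in HEK293T, 10.1% without ATRA and 41.2% with ATRA, against 9.18%, 6.50% and 37.6% of 3'UTR DRACH sites. In siScram cells alone 30.8%, 54.4% and 19.8% of members were called, against 23.8%, 50.5% and 17.97% of 3'UTR DRACH sites. A site called in 1 group alone is listed through the group in which it was called, so the listing itself favours a difference in that direction.

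**Figure D1:**
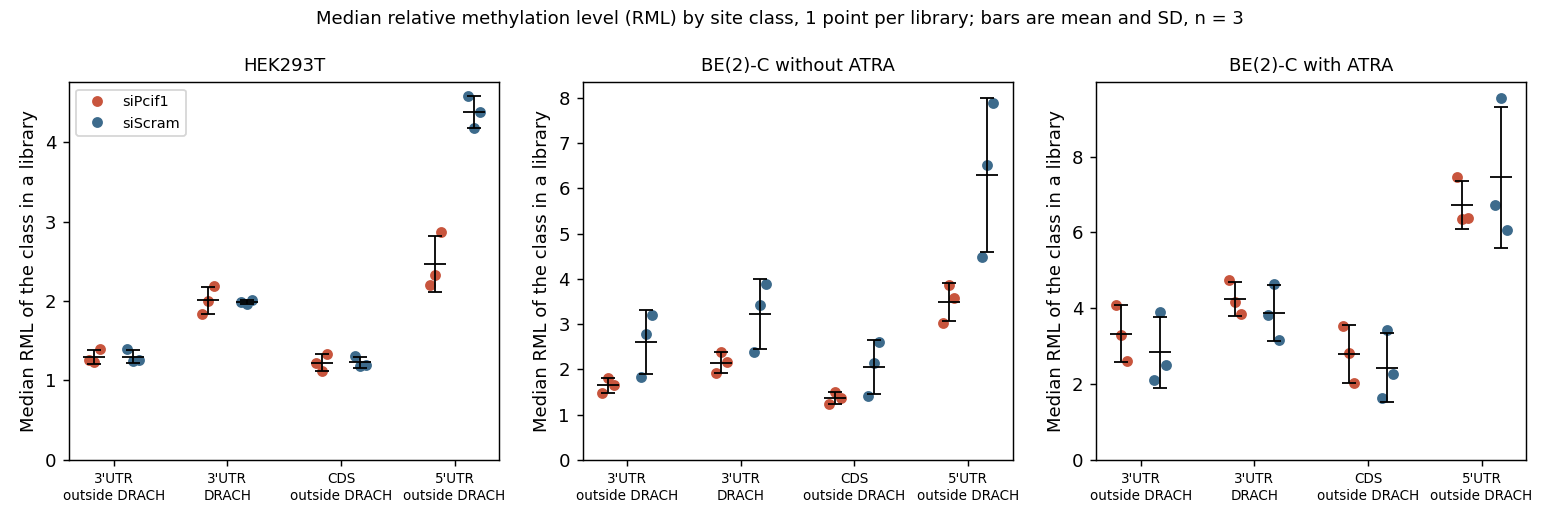
Median RML of 4 site classes in each m6ACE library, siPcif1 (red) left of siScram (blue), with mean and SD of 3 libraries. The 3'UTR sites outside DRACH sit below 3'UTR DRACH sites in all 3 contexts, and the siRNA groups of both 3'UTR classes move together.

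The members used most of the possible sequences, but unevenly. Of 238 possible 5-base motifs that have a central A and miss DRACH, 202 occurred in HEK293T, 234 in BE(2)-C without ATRA and 228 with ATRA. The 10 most frequent held 39.6% of the members in HEK293T, 17.6% in BE(2)-C without ATRA and 23.9% with ATRA. In HEK293T the leading motif was GGACG with 273 sites in 238 genes, followed by CCAGG with 253, CCAGC with 188 and GGATT with 177. CCAGG led in both BE(2)-C tables, with 86 sites without ATRA and 170 with ATRA.

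Sequences 1 base away from GGACT, the commonest DRACH form among the 3'UTR DRACH sites of all 3 tables, were frequent in HEK293T. There are 7 such motifs outside DRACH, 2.94% of the 238, and they held 717 members in HEK293T (17.5%), 205 in BE(2)-C without ATRA (6.27%) and 147 with ATRA (4.18%). This set of motifs was chosen after the counts had been seen. Among coding sites outside DRACH the same motifs held 13.4%, 3.99% and 3.59%, and among 5'UTR sites outside DRACH 4.34%, 3.38% and 2.68%, in the same order of tables. GGATT, which has T in place of the C that follows the adenosine in DRACH, was one of this set and differed by region. It made up 4.33% of members in HEK293T against 1.39% of coding sites outside DRACH, 1.96% against 0.794% in BE(2)-C without ATRA, and 0.910% against 0.295% with ATRA. GGATT sites had a lower median RML than GGACG sites in each of the 18 libraries.

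The median level of the members differed by which base missed DRACH. Sites that missed it only at the fifth base had median mean RML of 1.98 in HEK293T, 2.85 in BE(2)-C without ATRA and 3.85 with ATRA. Sites that missed it only at the second base had 1.87, 2.59 and 3.68 in those tables. Sites that missed it at 2 or more bases, which made up 63.7%, 72.5% and 76.9% of the members, had 1.35, 2.19 and 3.18. The last group was below the fifth-base and second-base groups in 18 of 18 libraries each, and below the 98, 35 and 35 first-base sites in 17 of 18. Sites that missed DRACH only at the fourth base, where C is replaced, were the lowest of the 5 groups, with 1.25, 2.11 and 3.01, and lay below the sites with several mismatches in 18 of 18 libraries. Sites with a fifth-base mismatch lay below 3'UTR DRACH sites in 16 of 18 libraries. These are descriptions, with no test, since sites of 1 library share its scaling.

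**Figure D2:**
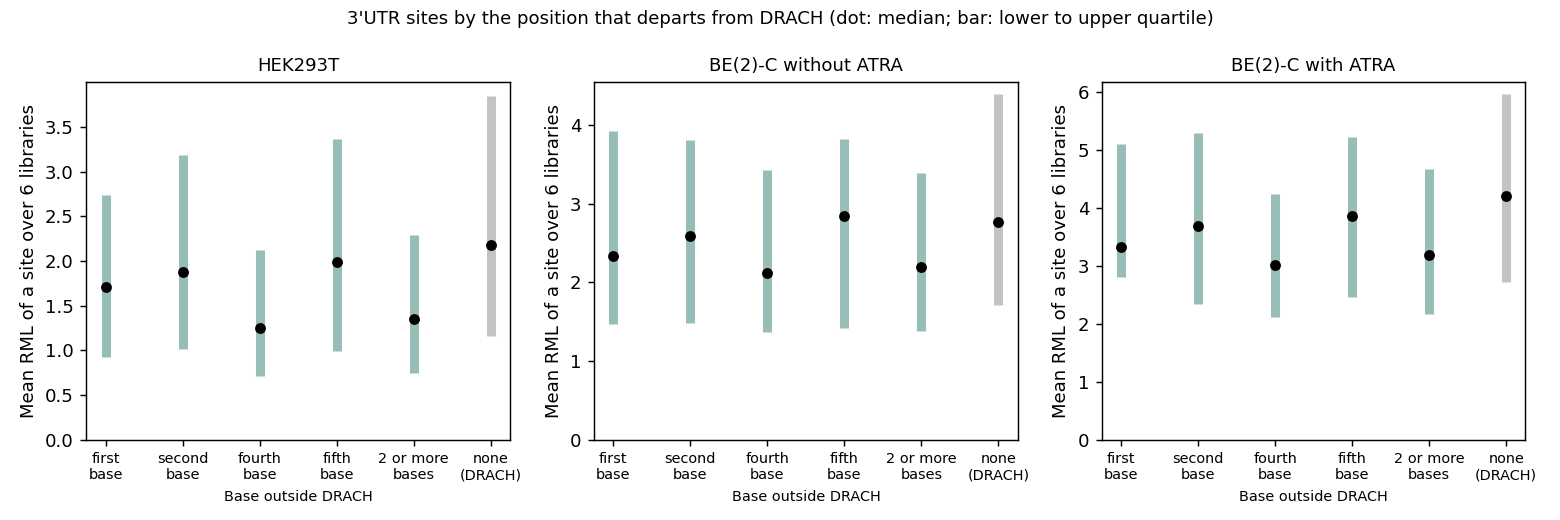
Mean RML over 6 libraries of 3'UTR sites by the position that misses DRACH, with the median as a dot and the span of the quartiles as a bar. Fourth-base mismatches have the lowest median in each context (1.25, 2.11 and 3.01), and fifth-base mismatches come nearest to or above the DRACH sites.

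GTACT was frequent in HEK293T only, and GGACG led there. GTACT has a pyrimidine before the adenosine where DRACH has A or G. It had 129 members in HEK293T with a median mean RML of 2.07, 37 in BE(2)-C without ATRA with 3.21 and 22 with ATRA with 4.60. GGACG had medians of 2.11, 2.57 and 4.44 over 273, 60 and 48 members. The 3'UTR DRACH motif GGACT had medians of 2.36, 2.45 and 3.82, and GGACA had 2.37, 2.72 and 4.28. GGACG lay below both in HEK293T, between them without ATRA and above both with ATRA. GTACT lay below both in HEK293T and above both in each BE(2)-C table.

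The next base on the 3' side of the adenosine differed between the tables. G followed it in 52.4% of members in HEK293T, 34.4% in BE(2)-C without ATRA and 48.8% with ATRA. T followed it in 18.5%, 37.4% and 28.9%. The shares among coding sites outside DRACH ran the same way, with G after the adenosine in 54.3%, 36.3% and 48.0%. ATG, with its A as the listed base, was found at 7.81% of members in HEK293T, 16.7% in BE(2)-C without ATRA and 16.1% with ATRA.

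Listed DRACH sites stood downstream of the members more often than upstream, as they did for coding sites outside DRACH. The nearest listed DRACH site on the same strand was 3 to 10 nt downstream of a member 352 times and the same distance upstream 238 times in HEK293T. The counts were 335 downstream and 159 upstream in BE(2)-C without ATRA, and 274 and 119 with ATRA. From 11 to 50 nt the downstream side again had more, 1270 against 656, 895 against 337 and 793 against 369. Single positions held up to 72 members in HEK293T (9 nt), 60 in BE(2)-C without ATRA (8 nt) and 48 with ATRA (4 nt). The first UQCC3 window printed above has the 8-nt arrangement. Within 5 nt of a listed DRACH site, on either side, lay 5.09% of members in HEK293T, 5.72% in BE(2)-C without ATRA and 4.58% with ATRA. Members within 10 nt of a DRACH site had a median mean RML of 1.55 in HEK293T, against 1.25 for those more than 100 nt away. The order was the other way round in BE(2)-C, with 2.21 near and 2.51 far without ATRA, and 3.11 near and 3.78 far with ATRA. Whether neighbouring entries come from the same modified base was not tested.

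**Figure D3:**
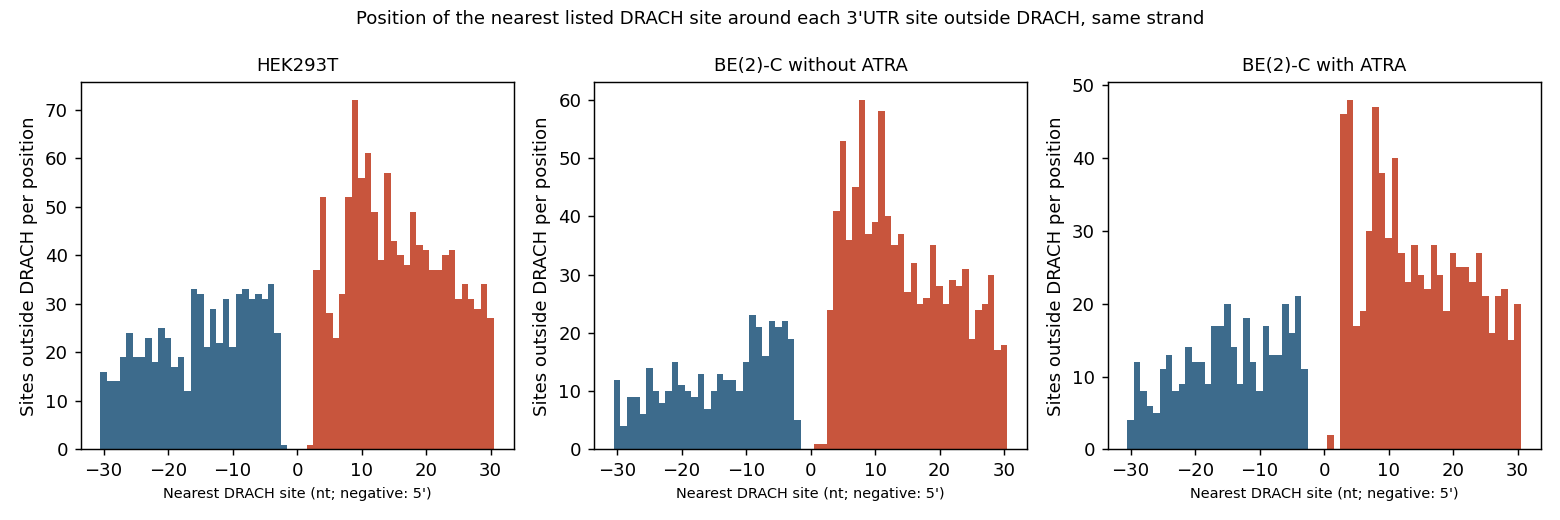
Position of the nearest listed DRACH site around each 3'UTR site outside DRACH, on the same strand, up to 30 nt, counted per nucleotide; red is downstream and blue upstream. The downstream side is higher in each of the 3 contexts, and almost no DRACH site is listed within 2 nt.

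The members were more crowded in BE(2)-C than in HEK293T. The 4087 HEK293T members fell in 1776 named genes, the 3272 without ATRA in 1023 and the 3518 with ATRA in 1204, with a median of 2 per gene in each table. Of these genes 89.5%, 61.4% and 54.4% also had a 3'UTR DRACH site. Genes with 10 or more members numbered 19 in HEK293T, 64 without ATRA and 57 with ATRA, and held 5.82%, 29.9% and 28.7% of the members. Another member lay within 50 nt of 45.6% of members in HEK293T, 71.7% in BE(2)-C without ATRA and 61.5% with ATRA. Measured to the end of the named gene in RefSeq, the median member lay 1100 nt before it in HEK293T, 1150 nt without ATRA and 1388 nt with ATRA, and 3'UTR DRACH sites lay at 1265, 1226 and 1325 nt.

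In HEK293T the genes with most members were SEC61A1, which encodes the channel of the ER translocon, with 21, SLC7A5, a transporter of large neutral amino acids, with 16, EEF2, the elongation factor that moves the ribosome, with 15, and DGCR2 with 14. In BE(2)-C without ATRA they were GATA2, a transcription factor gene, with 35 within 574 nt, the growth factor gene IGF2 with 32, HMP19 with 31 and the adaptor gene DOK4 with 27. With ATRA they were PLEKHA6 with 56, GATA2 with 40, SLC7A5 with 39 and FAM163A with 38. PLEKHA6 had only 2 members in the table without ATRA. Levels differed by gene: the 15 EEF2 sites in HEK293T had mean RML between 0.132 and 0.714, whereas the 16 SLC7A5 sites ran between 0.350 and 6.05. In both BE(2)-C tables genes with 10 or more members had lower levels, with a median mean RML of 1.62 without ATRA and 2.61 with ATRA, against 2.80 and 3.94 in genes with 1 member. In HEK293T the medians were 1.35 and 1.42 in the same order.

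Few of the members were listed in more than 1 context. HEK293T and BE(2)-C without ATRA shared 484 of them, 11.8% of the first table's members and 14.8% of the second's. HEK293T and BE(2)-C with ATRA shared 538 (13.2% and 15.3%), and the BE(2)-C tables shared 922 of them (28.2% of those without and 26.2% of those with ATRA). Of the 3'UTR DRACH sites listed in BE(2)-C, 72.9% without ATRA and 68.0% with ATRA were also listed in HEK293T. Of those listed in HEK293T, 13.8% were also listed without ATRA and 13.1% with ATRA, close to the members' 11.8% and 13.2%. HEK293T listed 9451 3'UTR DRACH sites, against 1784 without ATRA and 1820 with ATRA, so these shares depend on the list used as base. Both BE(2)-C lists held 47.0% of the 3'UTR DRACH sites without ATRA and 46.1% of those with ATRA. In all 3 tables there were 260 members in 160 genes, 6.36% of the HEK293T members, 7.95% of those without ATRA and 7.39% of those with ATRA, beside 7.07%, 37.4% and 36.7% of the 3'UTR DRACH sites. A site is listed only if a deposited p-value of 1 siRNA group or of both was at most 0.05, so absence from a table does not show absence of the mark. The order of levels of the 260 sites was alike between tables, with Spearman's rho of 0.84 between HEK293T and BE(2)-C without ATRA, 0.88 between HEK293T and BE(2)-C with ATRA and 0.93 between both BE(2)-C tables (across sites, n = 260, a description).

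The shared sites with the highest ranks lay in RASL10B, FAAP100, NAA40, DDX23 and SDHAF1. The GTACT site of RASL10B, a Ras-like GTPase gene, is on chromosome 17 at position 35741361. It was the member with the highest mean RML in HEK293T (16.1) and with ATRA (29.2). In HEK293T it had RML of 8.82, 17.6 and 15.9 in siPcif1 libraries, against 13.7, 16.3 and 24.0 in siScram libraries. In BE(2)-C without ATRA it had 8.35, 17.4 and 13.5 in siPcif1, against 10.2, 48.2 and 9.39 in siScram libraries. With ATRA it had 23.3, 19.7 and 51.5 in siPcif1, against 18.7, 12.5 and 49.6 in siScram libraries. The siRNA groups overlapped in all 3 contexts, and single libraries reached 48.2 and 51.5. FAAP100, a subunit of the Fanconi anaemia core complex, carried a pair of neighbouring sites on chromosome 17, GGATT at position 81540433 and ACAGG at 81540436. SDHAF1, an assembly factor of succinate dehydrogenase, had a GGACG site with mean RML of 8.83 in HEK293T, 6.16 in BE(2)-C without ATRA and 7.96 with ATRA. Other members with high levels were a TCACT site of PAFAH2 (15.6) and a GGACG site of the cytokine gene CSF1 (14.5) in HEK293T. A TCAAA site of the splicing factor gene SRSF8 had 19.5 without ATRA, the highest mean of that table's members, and 20.9 with ATRA. An ACAAA site of SRRM4, a neural splicing regulator, had 5.96, 8.14 and 8.29 in siPcif1, against 11.8, 40.0 and 19.7 in siScram libraries without ATRA (limma adjusted p = 0.0873), and the groups were separate. The SRRM4 site was listed through the siScram group alone, in which it is high, so the listing favours a decrease there.

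MAT2A, which encodes the enzyme that makes S-adenosylmethionine, gave 8 members in HEK293T, 6 in BE(2)-C without ATRA and 1 with ATRA. The METTL16 sequence ACAGA occurred at 4 of them, on chromosome 2 at positions 85543815, 85544602, 85544787 and 85545017, spread over 1202 nt. All 4 were listed in HEK293T and in BE(2)-C without ATRA. Only 8 members in 5 genes carried ACAGA in HEK293T, so MAT2A supplied 4 of the 8. ACAGA members numbered 19 in 16 genes without ATRA and 14 in 14 genes with ATRA, where just the last MAT2A position was listed.

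The 4 MAT2A sites had unlike levels. At the most 3' position, 85545017, RML in HEK293T was 3.33, 4.52 and 4.39 in siPcif1 libraries, against 3.89, 3.54 and 7.28 in siScram libraries. In BE(2)-C without ATRA it was 3.35, 3.93 and 3.26 in siPcif1, against 3.59, 6.23 and 6.04 in siScram libraries. With ATRA it was 7.13, 5.68 and 3.80 in siPcif1, against 5.60, 6.83 and 3.72 in siScram libraries. This site was the highest of the ACAGA sites of MAT2A in every library of HEK293T and of BE(2)-C without ATRA, at a mean of 4.49 and 4.40, while the other three had mean RML between 0.689 and 1.48. The siRNA groups overlapped at this position in HEK293T and with ATRA, and in BE(2)-C without ATRA as well. The fitted log2 change was -0.19 (limma adjusted p = 0.92) in HEK293T, -0.50 (limma adjusted p = 0.348) without ATRA and 0.03 (limma adjusted p = 1.0) with ATRA. No MAT2A member was called in any context.

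**Figure D4:**
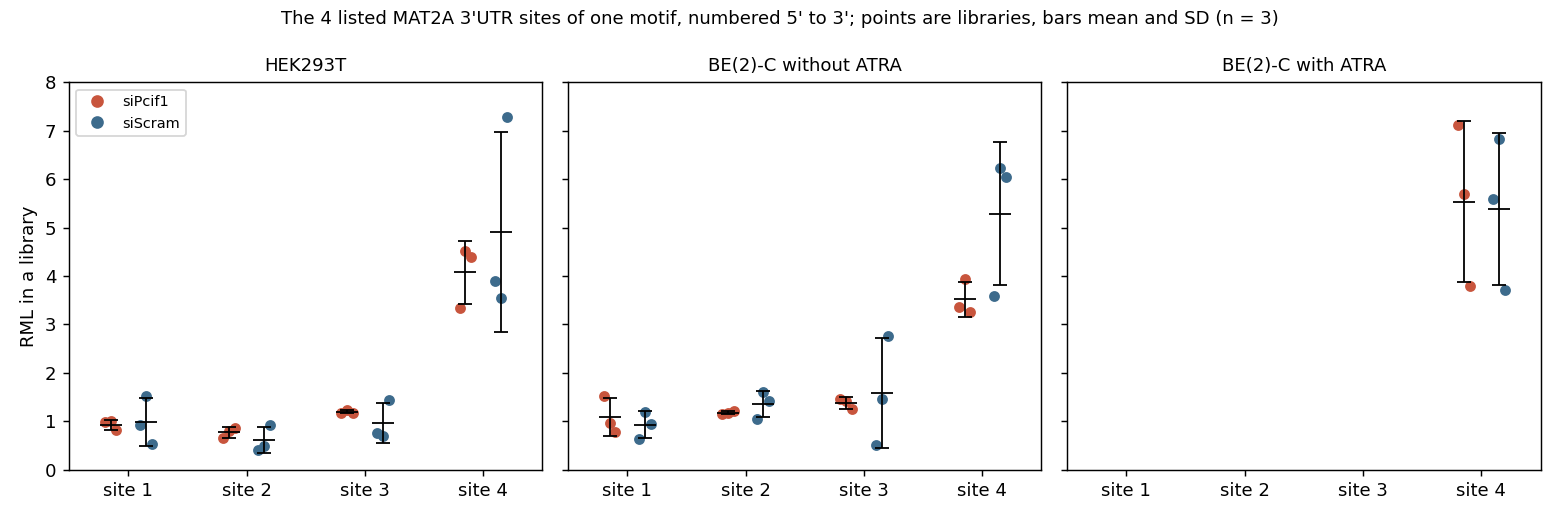
RML of the MAT2A 3'UTR sites with the METTL16 sequence in each library, siPcif1 (red) left of siScram (blue), with mean and SD of 3 libraries. Site 4 is the highest, at a mean of 4.49 in HEK293T and 4.40 in BE(2)-C without ATRA, and is the 1 site listed with ATRA, at 5.46.

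The comparison of siPcif1 with siScram asks whether sites far from the cap depend on PCIF1. In HEK293T the members had alike levels under both siRNAs. Their median RML was 1.26, 1.23 and 1.39 in siPcif1 libraries, against 1.39, 1.24 and 1.26 in siScram libraries, and the groups overlapped. The median fitted change on the scale of log2(RML + 0.298) was -0.0058 for the members, 0.01 for 3'UTR DRACH sites and -0.70 for 5'UTR sites outside DRACH. No member was called by limma at an adjusted p of 0.05 in either direction, as for the whole table, where 0.0% of sites passed on the lower side and 0.0% on the higher. With no adjustment, at p of 0.05, 137 members were lower and 156 higher (3.35% and 3.82%), against 9.31% and 2.79% of all sites. The siPcif1 libraries lay wholly below the siScram libraries at 249 members (6.09%, against 11.7% of all sites) and wholly above at 254 (6.21%, against 4.96%). On the lower side the members' shares were thus below those of all sites, and on the higher side above them, but this was not particular to the members. Libraries were separate at 5.6% lower and 6.3% higher of 3'UTR DRACH sites, and at 6.3% and 5.5% of coding sites outside DRACH. For 5'UTR sites outside DRACH, which are part of all sites, the shares were 34.9% and 0.61%.

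In BE(2)-C without ATRA the members were lower in siPcif1 cells, and so were nearly all other sites. Their median RML was 1.48, 1.81 and 1.66 in siPcif1 libraries, against 1.83, 2.79 and 3.21 in siScram libraries, so the groups were separate by a narrow margin and siScram replicate 1 lay far below the other two. The median change was -0.47 for members, -0.44 for 3'UTR DRACH sites and -0.43 for all sites. limma called 123 members lower and 2 higher, beside 3.69% lower and 0.0219% higher of all sites. The lower calls made up 3.76% of the members. After every library had been centred at its own median, the members' median change was 0.02 and none was called, and without siScram replicate 1 the count of lower calls was 1943. Without any other single library it lay between 2 and 14. Shares over all sites with a library left out are not given here, so these counts do not set the members apart from the table. The libraries were separate at 937 members on the lower side (28.6%, against 27.0% of all sites) and at 12 on the higher side (against 0.179%). The fit shared almost all of its variance between sites, and the authors' deposited p-values, adjusted in the same way, gave 0 calls (964 lower and 8 higher unadjusted, beside 26.2% and 0.144% of all sites). Without adjustment limma had 1007 members lower and 4 higher, beside 26.2% and 0.0788% of all sites.

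With ATRA the members' median RML was 4.10, 3.28 and 2.60 in siPcif1 libraries, against 2.11, 3.90 and 2.50 in siScram libraries, and the groups overlapped. The median change was 0.17 for members, 0.11 for 3'UTR DRACH sites and 0.12 for all sites. Without 1 library the members' value lay between 0.02 (without siScram replicate 1) and 0.36 (without siScram replicate 2). It was 0.04 without siPcif1 replicate 1 and 0.29 without siPcif1 replicate 3. The difference between members and 3'UTR DRACH sites was 0.06, and it turned to -0.07 without siScram replicate 1 and to -0.0019 without siPcif1 replicate 1. limma called no member in either direction (0.0% and 0.0% of all sites). At an unadjusted p of 0.05, 2 members were lower and 78 higher (0.0569% and 2.22%), against 0.842% and 2.03% of all sites. The libraries were separate at 21 members on the lower side and 203 on the higher side (0.597% and 5.77%), against 1.69% and 4.66% of all sites. The members' shares on the higher side were thus close to those of all sites. On that side 3'UTR DRACH sites had 1.26% at the unadjusted p and 6.87% with separate libraries. Coding sites outside DRACH had 1.85% and 3.53%. By the authors' deposited p-values, unadjusted, 21 members were lower and 211 higher, against 1.34% and 4.63% of all sites. With all libraries centred the members' median change was 0.12 in HEK293T, 0.02 in BE(2)-C without ATRA and 0.01 with ATRA, whereas that of 5'UTR sites outside DRACH was -0.57, -0.16 and -0.24.

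**Figure D5:**
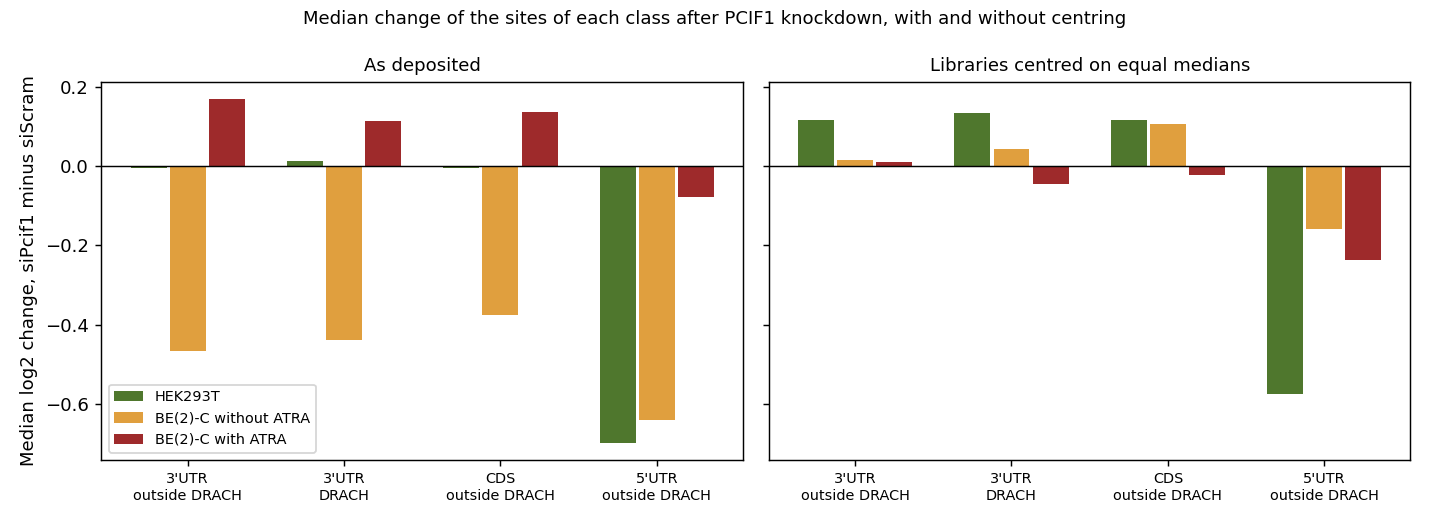
Median log2 change (siPcif1 minus siScram) of the sites of 4 classes in 3 contexts, as deposited on the left and with each library centred on its median on the right. The members' medians are -0.0058, -0.47 and 0.17 as deposited, close to 3'UTR DRACH sites in each context, and 0.12, 0.02 and 0.01 after centring.

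The 125 called members of BE(2)-C without ATRA lay in 113 genes and had a median RML of 1.40 in siPcif1 and 3.88 in siScram cells. By the deposited p-values just 5 of the 123 lower calls, and 0 of the 2 higher calls, were at sites called in both siRNA groups. Among those at or above the table's median RML with separate groups, the largest decrease was at a GAAGG site of AP4M1, a subunit of the AP-4 vesicle coat, on chromosome 7 at position 100107056. It had RML of 2.95, 4.13 and 3.13 in siPcif1, against 6.25, 51.2 and 13.6 in siScram libraries, and the log2 change was -2.13 with an SE of 0.46 (limma adjusted p = 0.00188). The siRNA groups were separate, and siScram replicate 2 stood far above the other siScram libraries. A GGATT site of ATCAY, which encodes the neuronal protein caytaxin, had 1.42, 2.92 and 1.66 in siPcif1, against 4.89, 6.51 and 13.5 in siScram libraries (log2 change -1.74 with an SE of 0.38, limma adjusted p = 0.00234). Sites of EID2, PDE2A, THRA and GDF11 were also lower, by log2 changes of -1.65, -1.61, -1.60 and -1.55. PDE2A is a cyclic nucleotide phosphodiesterase, THRA a thyroid hormone receptor and GDF11 a ligand of the TGF-beta family. All 6 of these sites were listed through the siScram group alone, in which they are high, and the listing favours a decrease there. The groups did not overlap at these sites, and after centring the limma adjusted p of each was between 0.217 and 0.244.

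The pair of members called higher, chosen after their values were seen, had low RML. A TCATG site of the histone gene H2AFX had 0.939, 0.747 and 0.612 in siPcif1, against 0.243, 0.348 and 0.295 in siScram libraries (log2 change 0.66, limma adjusted p = 0.0012). A TGAAC site of ACE, the angiotensin-converting enzyme gene, had 1.07, 0.747 and 1.04 in siPcif1, against 0.370, 0.323 and 0.362 in siScram libraries (log2 change 0.76, limma adjusted p = 0.00101). The siRNA groups were separate at both sites, and both were listed through the siPcif1 group alone, in which they are high. At IGF2, whose 32 members had mean RML of at most 1.55, just 3 had a negative change in this context. The median change was 0.17, and 7 members were separate on the higher side (0.179% of all sites were), none of them called. These are sites of 1 gene, picked for its many members. With ATRA its 18 members had a median change of 0.03, and 1 was separate on the higher side, where 4.66% of all sites were.

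In HEK293T none of the members was called, and the largest changes by the same criteria were at CLSPN and CNNM2. A TAAGG site of CLSPN, which encodes a checkpoint adaptor of DNA replication, had 5.88, 7.62 and 7.49 in siPcif1, against 1.53, 1.26 and 0.658 in siScram libraries (log2 change 2.38 with an SE of 0.39, limma adjusted p = 0.157). A CCATG site of CNNM2, a magnesium transport gene, had 1.47, 0.641 and 0.535 in siPcif1, against 3.43, 3.79 and 7.45 in siScram libraries (log2 change -2.14 with an SE of 0.43, limma adjusted p = 0.158). The groups were well apart at both sites, in opposite directions, and each site was listed through the group in which it is high and not through the other. BRD3, SPPL2B, UNC119B and ZBED3 had changes between -1.56 and -1.51, and a pair of RAB40B sites 3 nt apart had changes of 1.91 and 1.92. The BRD3, SPPL2B and ZBED3 sites were listed through the siScram group alone, in which they are high, and the UNC119B site through both groups. Of the RAB40B pair, the GTACT site was listed through both groups and the other through the siPcif1 group alone, in which it is high. At the RAB40B GTACT site 1 siPcif1 library stood at 20.6 and the others at 3.41 and 3.33.

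With ATRA the largest increases by the same criteria were at TTC4, MRPL35, NOL6 and EHD1. The TAAAG site of TTC4, a co-chaperone gene, had 19.6, 19.3 and 13.5 in siPcif1, against 8.16, 3.72 and 5.15 in siScram libraries (log2 change 1.52, limma adjusted p = 0.641). The CGACT site of EHD1, which acts in endocytic recycling, had 14.1, 10.3 and 12.3 in siPcif1, against 5.19, 4.25 and 3.90 in siScram libraries (log2 change 1.30, limma adjusted p = 0.698). The groups were separate at both sites, but neither passed the adjustment over 21031 sites. TTC4, MRPL35, NOL6 and EHD1 were all listed through the siPcif1 group alone, in which they are high, so the listing favours an increase. The largest decreases, between -0.68 and -0.47, were at KLF13, RAVER1, KIF26B, GATAD2A, QPCTL and CCDC85B, and none was called.

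The gene lists used here held few members. Of 26 m6A and m6Am factors, a list that also holds the S-adenosylmethionine enzymes MAT2A and AHCY, 8 genes had 20 members in HEK293T, 3 had 10 in BE(2)-C without ATRA and 2 had 4 with ATRA, and none was called. Their median change was -0.03, -0.41 and 0.23 in these contexts, beside -0.08, -0.43 and 0.12 over all sites. MAT2A alone supplied 8 of the 20, 6 of the 10 and 1 of the 4. WTAP, a subunit of the METTL3 complex, had members in all 3 contexts, 4 in HEK293T and 3 in each BE(2)-C table. PCIF1 itself had 1 member, in HEK293T, with a mean RML of 1.15. Of 24 cleavage and polyadenylation factors, 2, 4 and 3 genes had 3, 6 and 3 members in HEK293T and in BE(2)-C without and with ATRA, with no call and median changes of 0.39, -0.74 and 0.44. At CLP1, an RNA kinase of the cleavage complex, a TAAAA site had 2.91, 5.61 and 5.52 in siPcif1, against 6.36, 11.5 and 12.9 in siScram libraries in BE(2)-C without ATRA (log2 change -1.05, limma adjusted p = 0.135). The groups were separate there, and the change was -0.56 after centring. This CLP1 site was listed through the siScram group alone, in which it is high, so the listing favours a decrease. Of 41 other factors that act on 3'UTRs, 4, 5 and 4 genes had 8, 6 and 10 members with median changes of 0.20, -0.28 and 0.14, and none was called.

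Neuroblastoma and neuronal genes carried the most members of the 5 lists in both BE(2)-C tables, but not in HEK293T. Of 27 such genes, 15 had 122 members in BE(2)-C without ATRA and 13 had 105 with ATRA, while 4 had 12 in HEK293T. MYCN, the oncogene that is amplified in this line, had 17 members without ATRA, with mean RML between 0.380 and 1.21, and 4 with ATRA, between 1.07 and 1.79. DBH, the noradrenaline-synthesising enzyme gene, had 4 members without ATRA and 18 with ATRA. limma called 2 of the 122 lower and none higher, a smaller share than the 3.69% of all sites called lower. They lay in GATA3 and STMN2, with log2 changes of -0.86 and -0.37 (limma adjusted p = 0.0493 and 0.0395), and at both the siRNA groups overlapped. Both sites were listed through the siScram group alone, in which they are higher, so the listing favours a decrease there. The list's median change was -0.38 without ATRA, 0.13 with ATRA and -0.42 in HEK293T, beside -0.43, 0.12 and -0.08 over all sites. In HEK293T GATA2 alone supplied 8 of the 12 members, with a median change of -0.54, so the list's value there rests largely on 1 gene. No member of it was called in HEK293T or with ATRA. Of 20 genes of the retinoic acid response, 5 had 11 members in HEK293T, 1 had 4 without ATRA and 5 had 19 with ATRA, with median changes of 0.25, -0.61 and 0.10. RARA, the receptor that binds ATRA, had 7 members with ATRA, 4 in HEK293T and none without ATRA, and no member of this list was called in any context.

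At the C11orf80-labelled site at the start of RCE1, shown above, RML in HEK293T was 1.47, 1.79 and 6.24 in siPcif1, against 15.3, 4.81 and 2.81 in siScram libraries. The groups overlapped, with 1 siPcif1 library above 2 of the siScram libraries. The log2 change was -1.12 (limma adjusted p = 0.573), and a second C11orf80-labelled site, 14 nt into RCE1, had a limma adjusted p of 0.569. Of the members, 12 in HEK293T, 5 in BE(2)-C without ATRA and 10 with ATRA fell in a RefSeq window around the start of another gene, and these 2 lay inside the transcript start on the same strand.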

How the data were processed

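The authors deposited, per the file headers, 1 table per context with a ratio (RML) for each m6ACE library, group means as ratios, a log2 fold change, p-values, a region and a motif. The sources used here do not give how RML was calculated. The submitters' processing notes name, without roles, the build hg38 and, as tools the authors used, STAR, Bowtie2, cutadapt 3.7, bcl2fastq 2.20 and DESeq2. In every row the smaller of the authors' deposited DESeq2 p-values of both groups was at most 0.05. Per-sample columns left unused numbered 0. Depth per site is unknown.

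All sites of a table were fitted together with limma 3.58.1 (R 4.3.3; lmFit, eBayes with trend) on log2(RML + the table's 5th percentile: 0.298 in HEK293T, 0.502 in BE(2)-C without ATRA, 0.857 with ATRA), siPcif1 minus siScram, with Benjamini-Hochberg adjustment at 0.05. Changes on this scale understate those of low sites. The filter (RML above 0 in at least 3 libraries) removed 0 sites, so all members passed. Total degrees of freedom came to 91420 in BE(2)-C without ATRA, where variance was almost wholly shared between sites. The code was tested on simulated data.

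The position column counts the adenosine from 1. It was checked against RefSeq promoter windows (GRCh38.p14): 10775, 1743 and 1661 of as many windows matched in HEK293T and in BE(2)-C without and with ATRA. Gene cells turned into dates left 13, 1 and 3 members unnamed. Named sites had RML at or above the table median and siRNA groups that did not overlap (6 largest decreases, 4 largest increases per context), or the highest RML, most members per gene, or the highest ranks in all 3 tables, with all MAT2A sites and 2 per gene list; a few of these are not reported here. The members, lists and tests were chosen with earlier results of these data known. Alternatives were centring, other pseudocounts, a stricter filter, the replicate number as a block, no trend, deposited p-values, leaving out each library and, added after seeing the data, only sites called in both groups.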

Additional observations from a re-analysis of the deposited data

Results flagged for a closer look

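At 5 named sites every siPcif1 library moved one way relative to siScram in 1 context and the opposite way in another. The difference between contexts was not tested, since no scale common to the tables is stated. The log2 change at the EHD1 site (chromosome 11, position 64853996) was -0.64 in HEK293T and 1.30 in BE(2)-C with ATRA. The TTC4 site (chromosome 1, position 54742066) had 1.52 with ATRA and -1.07 without ATRA. GATAD2A, a subunit of the NuRD complex, had, at chromosome 19, position 19506094, 0.60 in HEK293T and -0.59 with ATRA. The FAAP100 sites lie 3 nt apart. Position 81540433 had -0.59 in HEK293T, -0.93 without ATRA and 0.31 with ATRA, and position 81540436 had -0.76 without ATRA and 0.32 with ATRA. With ATRA the EHD1 and TTC4 sites were listed through the siPcif1 group alone, in which they are high. Without ATRA position 81540433 was listed through the siScram group alone, in which it is high. The listing favours these directions. Position 81540436 was listed through both groups in both BE(2)-C tables, and GATAD2A through both with ATRA. In the same tables the median of all sites' changes was -0.08 in HEK293T, -0.43 without ATRA and 0.12 with ATRA. Among all shared members such opposite, separate changes numbered 8 of 484 between HEK293T and BE(2)-C without ATRA. They numbered 4 of 538 between HEK293T and BE(2)-C with ATRA, and 17 of 922 between both BE(2)-C tables. No such count over all shared sites is given here. Separate libraries on the lower and higher side occurred at 6.09% and 6.21% of HEK293T members (all sites: 11.7% and 4.96%). For BE(2)-C without ATRA the shares came to 28.6% and 0.367% (all sites: 27.0% and 0.179%). The ATRA table had 0.597% and 5.77% (all sites: 1.69% and 4.66%). Whether opposite pairs exceed what these shares alone would give was not tested, so the 5 sites are not set apart from their tables.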

How the results depend on the processing

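Counts of called members rested on the fit in BE(2)-C without ATRA. The 123 lower calls became 0 with each library centred, 0 without a variance trend, 0 with the deposited p-values, 80 with a filter at the table median, 5 among sites called in both groups and 465 under a replicate block. Leaving out 1 library gave between 2 and 1943 lower calls: 2, 14 and 9 without siPcif1 replicate 1, 2 or 3, and 1943, 5 and 4 without siScram replicate 1, 2 or 3. Shares over all sites under these alternatives are not given here. The 2 higher calls became 0 with centring, with the stricter filter, without the trend, with the deposited p-values and among sites called in both groups, and between 1 and 5 without 1 library. With ATRA the higher calls ranged from 0 to 2, with 2 without siPcif1 replicate 3. In HEK293T the calls were 0 under every alternative run. Replicate numbers did not pair the libraries: correlations of same-numbered deviations were 0.02, 0.01 and 0.0043 in HEK293T, 0.12, 0.0048 and 0.0086 without ATRA and -0.31, 0.06 and -0.26 with ATRA, where siPcif1 replicate 3 and siScram replicate 1 had 0.46, and in HEK293T alone each sample correlated best with its own number. Centring moved the median change of members to 0.1161 in HEK293T and turned it to 0.016 without ATRA. The median change of members minus that of 3'UTR DRACH sites in BE(2)-C without ATRA turned to 0.0056 with the pseudocount at the median and was -0.0667 with the stricter filter. The share of members near a DRACH site was 0.0489%, 0.214% and 0.0569% within 2 nt in HEK293T, without and with ATRA, and 14.5%, 15.3% and 11.2% within 10 nt. Within 5 nt, with members and DRACH sites both limited to RML at or above the table median, it was 7.58%, 6.30% and 5.35%. Of 96 named sites, 8 changed sign with centring; STMN2 in BE(2)-C without ATRA, a called site, turned to 0.12. The cause of these changes was not tested. The unknown depth per site and the 3 libraries per group limit precision.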
